A study of Mus musculus with 12 samples.

Results

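The axon guidance ligands and receptors are 58 genes, read by 62 of the 17589 probes on the arrays. They are the probes whose gene symbol begins with Sema, Plxn, Nrp1, Nrp2, Epha, Ephb, Efna, Efnb, Slit1, Slit2, Slit3, Robo (without Robo4), Ntn1, Ntn4 or Unc5, or is Dcc, Neo1 or Reln. The rule reads symbols and no measured value. By these prefixes the set also takes in Unc50, a Golgi protein, and Unc5cl, a death domain protein that is not known as a netrin receptor. Of 70 protein-coding genes in RefSeq that meet the same rule, 12 were not analysed here: Epha10, Ephb1, Ephb2, Nrp2, Plxna4, Plxnb1, Robo2, Robo3, Sema3g, Sema4c, Unc5a and Unc5d.

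RNA came from mouse mammary glands at 5 weeks of age, dissected under the light of a green fluorescent protein reporter driven by the beta-actin promoter. On 6 arrays, terminal end buds, the bulbous tips of the growing ductal tree, were hybridised against distal stroma, the part of the fat pad that the tree has not reached. On the other 6 arrays, mature ducts were hybridised against distal stroma. Every value is therefore a log2 ratio (base 2 is assumed, as no label names the base and the sizes exclude base 10) of epithelium (Cy5) over stroma (Cy3) for 1 probe. The labels give no dye swap, and ratios of different probes say nothing of which gene is more abundant. No strain, sex or further genotype is given in the sources used here, and neither is whether arrays came from separate animals or from pools, so the spread behind each p-value is that between arrays and may be technical.

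Semaphorins are secreted or membrane-bound ligands read by plexins, and most of the secreted class 3 members also need a neuropilin as co-receptor. Ephrins stay on the cell surface and signal through Eph receptor tyrosine kinases on the neighbouring cell. Slits act through Robo receptors, netrins through Dcc, neogenin (Neo1) and Unc5 receptors, and reelin through lipoprotein receptors. All are best known from the developing nervous system, where they steer axons or migrating neurons. In the mouse mammary gland, netrin-1 and neogenin are known for keeping the cap cell layer attached to the inner cells of the end bud, and Slit2 and Robo1 for holding the basal and luminal layers together.

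Of 11 luminal markers, 10 were higher than stroma in terminal end buds and 10 in ducts, and of 9 basal and myoepithelial markers 8 and 9 were higher. All 10 endothelial markers were lower in terminal end buds and 6 of the 10 in ducts, and 7 and 3 of 8 adipocyte markers were lower. Of 10 fibroblast markers, terminal end buds had 4 above stroma and 1 below it (median 0.0102), and ducts had 6 above it (median 0.59). Nerve and Schwann cell markers, which could come with nerves of the fat pad, were mixed: of 10, terminal end buds had 2 above stroma and 3 below it, and ducts had 1 below it. Array pairs correlated with a median Pearson r of 0.81 among terminal end buds, 0.723 among ducts and 0.593 between the structures, across genes, which are not independent replicates.

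Guidance genes were more often above distal stroma than below it. In terminal end buds 26 of the 58 genes were higher than stroma and 8 lower with limma at an adjusted p under 0.05, which is 44.8% and 13.8% of them, where 24.8% and 21.8% of all 12913 genes were called (58.6% of the set in either direction, where 46.6% of all genes were). In ducts 17 were higher and 2 lower, or 29.3% and 3.45%, where the share of all genes was 17.1% and 13% (32.8% in either direction, where 30.2% of all genes were). The duct count dropped to 11 higher without duct replicate 5. The median log2 ratio of the 58 genes was 0.18 in terminal end buds and 0.15 in ducts, and that of all genes was 0.013 in each. Stroma was only ever the other channel, so its own spread cannot be separated from that of the epithelium on each array. The labels do not say whether 1 stroma sample served all arrays. Without a dye swap, a difference from stroma and a difference between the dyes cannot be told apart. In such bulk tissue, fewer cells of a type and less RNA per cell cannot be told apart.

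Of the 58 genes, 15 were higher than stroma in both structures and 2, Nrp1 and Plxna2, were lower in both. The share of all genes called in both structures was not counted, so these counts have no share beside them. Between the 6 and 6 arrays, 5 genes did not overlap, 1 higher and 4 lower, or 8.62%, where 11.2% of all genes did not (4.91% higher and 6.3% lower). Set against ducts, terminal end buds were higher for 6 genes and lower for 5, together 19.0% of the set. Of all genes 20.4% were called (9.11% higher and 11.3% lower), so the share among guidance genes was near that of all genes. The plot of all members by family shows both ratios for each gene.

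**Figure D1:**
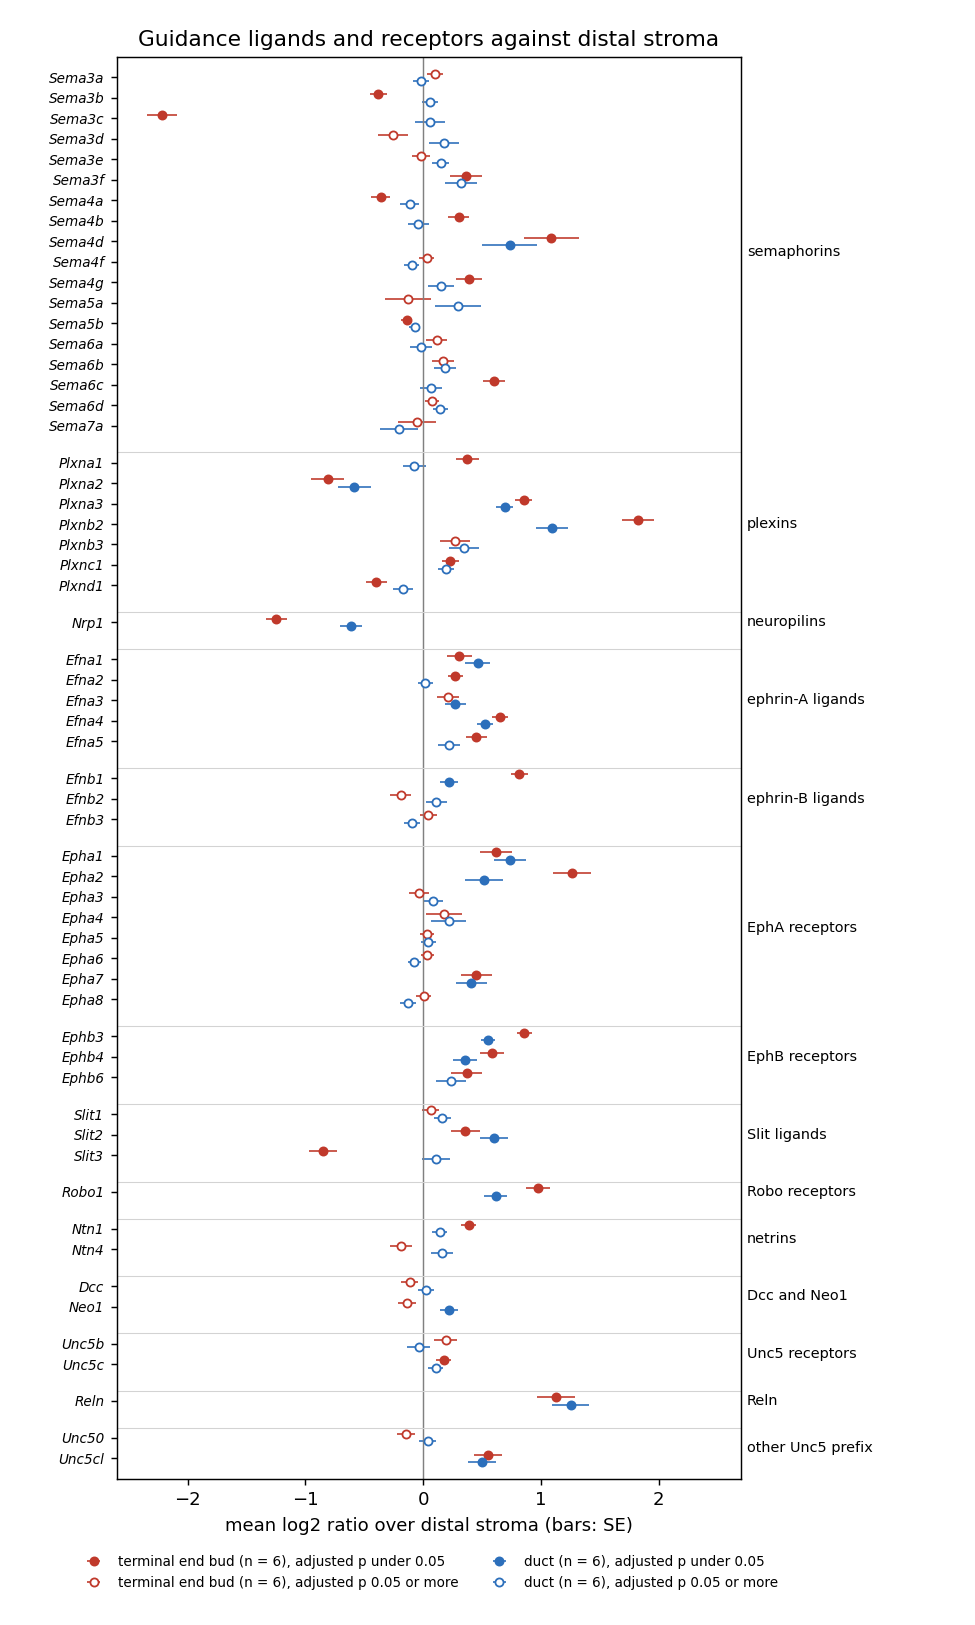
Mean log2 ratio over distal stroma for each of the 58 genes (horizontal axis), in terminal end buds (red, upper point) and ducts (blue, lower point), with the standard error of the limma fit as bars and families separated by lines. Filled points passed an adjusted p of 0.05. Sema3c in terminal end buds lies far to the left at -2.22, while its duct value stands at 0.058, and Plxnb2 and Reln lie to the right in both structures.

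Promoters are shown for 4 genes: Sema3c and Slit3, lower in terminal end buds than in ducts, and Efnb1 and Epha2, higher there. Sema3c and Slit3 had the 2 lowest differences of terminal end buds against ducts, Epha2 had the highest and Efnb1 the lowest adjusted p among the higher ones. Each sequence is RefSeq's for GRCm38.p6, runs 5′ to 3′ along the gene from 250 bases before its start to 50 bases into it, and has its CG dinucleotides in capitals. Their places are chr5:17574566-17574865 for Sema3c, chr11:35121206-35121505 for Slit3, chrX:99135811-99136110 for Efnb1 and chr4:141300971-141301270 for Epha2, all on the + strand.
Sema3c: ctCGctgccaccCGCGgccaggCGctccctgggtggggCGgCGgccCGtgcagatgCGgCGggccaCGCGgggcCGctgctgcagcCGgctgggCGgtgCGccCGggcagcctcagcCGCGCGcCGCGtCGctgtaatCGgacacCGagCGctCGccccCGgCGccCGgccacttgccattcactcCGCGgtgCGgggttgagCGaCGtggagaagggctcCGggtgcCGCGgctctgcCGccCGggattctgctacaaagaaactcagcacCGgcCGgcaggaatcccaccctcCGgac
Slit3: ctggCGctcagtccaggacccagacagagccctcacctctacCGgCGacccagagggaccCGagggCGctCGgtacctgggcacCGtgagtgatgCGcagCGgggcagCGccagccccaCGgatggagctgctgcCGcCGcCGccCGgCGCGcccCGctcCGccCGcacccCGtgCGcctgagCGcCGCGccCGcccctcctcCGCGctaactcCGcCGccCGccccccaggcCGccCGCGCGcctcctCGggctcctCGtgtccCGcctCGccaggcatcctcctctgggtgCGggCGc
Efnb1: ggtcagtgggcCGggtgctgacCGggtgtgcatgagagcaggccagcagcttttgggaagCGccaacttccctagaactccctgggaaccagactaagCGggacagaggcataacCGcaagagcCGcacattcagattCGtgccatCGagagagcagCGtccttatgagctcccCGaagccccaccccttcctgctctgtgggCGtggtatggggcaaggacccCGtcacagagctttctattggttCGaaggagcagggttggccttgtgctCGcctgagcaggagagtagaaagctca
Epha2: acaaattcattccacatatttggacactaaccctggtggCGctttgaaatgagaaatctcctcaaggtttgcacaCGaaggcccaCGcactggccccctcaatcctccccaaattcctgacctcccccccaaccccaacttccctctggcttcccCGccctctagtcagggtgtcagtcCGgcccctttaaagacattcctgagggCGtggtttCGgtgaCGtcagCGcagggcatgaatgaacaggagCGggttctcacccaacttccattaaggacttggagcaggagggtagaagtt
The Sema3c and Slit3 windows hold 42 and 41 CG dinucleotides, as many as 2.93% and 3.35% of all 27025 genes' promoters reach. Efnb1 and Epha2 hold 14 and 10, which 36.9% and 43.9% of all promoters reach. The median was 23 over the 50 guidance genes with a promoter in the table and 7 over all genes, and 94.2% of all promoters hold at least 1. Motif letters were searched on both strands, and none of the 4 windows holds any of the 3 motifs. The GATA letters AGATAA were found in 2 of the 50 guidance promoters (4%), against 11.4% of all promoters. For the E-box letters CACCTG the shares were 12% (6 promoters) and 20% of all promoters. The TATA box letters TATAAA were in 2 of the guidance promoters (4%) and 14.2% of all. So few guidance promoters allow no reading of these shares as a difference. These are descriptions of the letters in a window and say nothing of any factor.

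Sema3c, a secreted class 3 semaphorin, set the structures apart more than any other of the 58 genes. Its counted probe lay at -2.41 (lowest), -2.25 (median) and -1.99 (highest) on the terminal end bud arrays, and at -0.62 (lowest), 0.079 (median) and 0.57 (highest) on the duct arrays. All 6 terminal end bud arrays were far below stroma and below every duct array, while the duct arrays scattered around 0, with 3 above it. Duct replicates 1 and 2, the duct arrays on slides up to 193, were the highest at 0.574 and 0.5. The ratio in terminal end buds was -2.28 (SE 0.18) on the log2 scale against ducts, 4.85-fold lower (adjusted p = 3.99e-06). It was -2.54 on slides up to 193 alone (2 arrays per group) and -2.15 on slides from 196 on (4 per group).

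A second Sema3c probe moved the same way but less. It lay at -1.15 (lowest), -0.75 (median) and -0.13 (highest) in terminal end buds, and at -0.25 (lowest), -0.028 (median) and 0.27 (highest) in ducts, so the groups overlapped. Its difference was -0.69 (SE 0.17, adjusted p = 0.00904), and the mean of both probes differed by -1.49. Both probes gave the same direction, and the size depended on the probe.

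Sema3b, another secreted class 3 ligand, was also lower in terminal end buds. It lay at -0.76 (lowest), -0.36 (median) and -0.13 (highest) on the terminal end bud arrays, and at -0.041 (lowest), 0.063 (median) and 0.15 (highest) on the duct arrays. The groups did not overlap, and the difference was -0.44 (SE 0.098, adjusted p = 0.00605). It was -0.27 on slides up to 193 (adjusted p = 0.297) and -0.52 on slides from 196 on (adjusted p = 0.013). Of the 6 class 3 genes, 2 were lower and 1, Sema3f, higher than stroma in terminal end buds. Of all genes, 21.8% were lower there and 24.8% higher. In ducts 0 of the 6 were called with limma, where 30.2% of all genes were, and 1 had an unadjusted p under 0.05. On slides up to 193 alone Sema3c was called higher than stroma in ducts, at 0.54 (adjusted p = 0.0121). With quantile normalization, or without terminal end bud replicate 4 or duct replicate 1, Sema3f was called higher in ducts (adjusted p between 0.0356 and 0.0484). Sema3f stood at 0.36 (adjusted p = 0.0412) in terminal end buds, a call that was lost under 15 of 24 other settings. The Sema3d difference between the structures was -0.43 and did not pass (adjusted p = 0.115). Without duct replicate 6 it was -0.56 and passed (adjusted p = 0.0225). Sema3a and Sema3e were within 0.1 of stroma in terminal end buds, at 0.099 and -0.019.

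Among the 12 membrane-bound semaphorins of classes 4 to 7, 4 were higher and 2 lower than stroma in terminal end buds, and 1 was higher in ducts. The shares of all genes were 24.8% and 21.8% in terminal end buds, and 17.1% were higher in ducts. So few genes allow no reading of these counts as a difference from those shares. Sema4d, a class 4 ligand, was the highest of the 18 semaphorins in both. It lay at 0.43 (lowest), 1.06 (median) and 1.66 (highest) in terminal end buds, and at -0.93 (lowest), 0.97 (median) and 1.49 (highest) in ducts. All terminal end bud arrays and 5 of 6 duct arrays were above stroma, with duct replicate 4 alone below it. The means were 1.09 (SE 0.23, adjusted p = 0.00151) and 0.74 (SE 0.23, adjusted p = 0.0301), and without that replicate ducts stood at 1.07. Without any 1 of the other 5 duct arrays the duct call was lost (adjusted p between 0.0654 and 0.1105).

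Sema6c, a transmembrane class 6 semaphorin, was above stroma in terminal end buds and close to it in ducts. The arrays lay at 0.37 (lowest), 0.59 (median) and 0.83 (highest) in terminal end buds, and at -0.33 (lowest), 0.048 (median) and 0.55 (highest) in ducts. Duct replicate 1 reached into the range of the terminal end buds, while the other duct arrays were below it. The difference was 0.53 (SE 0.13, adjusted p = 0.0104). It was 0.17 on slides up to 193 (adjusted p = 0.724) and 0.72 on slides from 196 on (adjusted p = 0.0074). Of the remaining classes, Sema4b and Sema4g were higher than stroma in terminal end buds at 0.301 and 0.39, and Sema4a and Sema5b lower at -0.36 and -0.14. The value of Sema4g was 0.24 without terminal end bud replicate 1, and the calls of Sema4b and Sema5b were lost without 1 array each time, replicate 4 for Sema4b (adjusted p = 0.0574) and replicates 3 and 6 for Sema5b (adjusted p = 0.0741 and 0.0509). Sema4f, Sema5a, Sema6a, Sema6b, Sema6d and Sema7a passed in neither structure.

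The plexins, receptors of the semaphorins, split by member. Of 7, 4 were higher and 2 lower than stroma in terminal end buds, and 2 were higher and 1 lower in ducts. Plxnb2, a receptor of class 4 semaphorins, had the highest ratio of the 58 genes in terminal end buds. Its arrays lay at 1.36 (lowest), 1.85 (median) and 2.31 (highest) in terminal end buds, and at 0.55 (lowest), 1.05 (median) and 1.72 (highest) in ducts. Every array was above stroma, and duct replicate 2 was within the range of the terminal end buds. The mean was 1.83 (SE 0.14) in terminal end buds and 1.09 (SE 0.14) in ducts, and the difference 0.73 (SE 0.19, adjusted p = 0.0152). The difference was 0.63 on slides up to 193 (adjusted p = 0.383) and 0.79 on slides from 196 on (adjusted p = 0.0258).

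Plxna3 and Plxna2, both receptors that work with neuropilins, stood on opposite sides of stroma. Plxna3 lay at 0.56 (lowest), 0.87 (median) and 1.04 (highest) in terminal end buds, and at 0.54 (lowest), 0.66 (median) and 0.92 (highest) in ducts. Plxna2 lay at -1.37 (lowest), -0.93 (median) and -0.047 (highest) in terminal end buds, and at -1.18 (lowest), -0.51 (median) and -0.25 (highest) in ducts. Neither gene differed between the structures at the threshold, with 0.16 (SE 0.1) and -0.23 (SE 0.199), and all 12 arrays agreed in sign for each. The second Plxna2 probe was lower too, at -0.31 in terminal end buds and -0.201 in ducts, where it did not pass (adjusted p = 0.159).

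Plxna1 was called higher in terminal end buds than in ducts from 1 of its 2 probes only. The counted probe lay at 0.12 (lowest), 0.26 (median) and 0.83 (highest) in terminal end buds, and at -0.37 (lowest), -0.065 (median) and 0.18 (highest) in ducts, with overlap. Its difference was 0.45 (SE 0.14, adjusted p = 0.0377), while the other probe differed by 0.066 (adjusted p = 0.634) and their mean by 0.26 (adjusted p = 0.0891). Leaving out terminal end bud replicate 2 or 5, or duct replicate 2, 3 or 5, also ended the call (adjusted p between 0.0733 and 0.0868). Within slides it passed on neither set, at 0.54 up to 193 (adjusted p = 0.279) and 0.403 from 196 on (adjusted p = 0.129). Against stroma the counted probe was called in terminal end buds at 0.38 (adjusted p = 0.00644), and the other probe was at -0.032 (adjusted p = 0.686). The call against stroma was lost with the mean of both probes (adjusted p = 0.0582). It was also lost on slides up to 193 alone (adjusted p = 0.075) and from 196 on (adjusted p = 0.0521). Plxnc1 was higher than stroma in terminal end buds at 0.23. In ducts, at 0.193, it did not pass (adjusted p = 0.0505) but did under some other settings. Plxnb3 passed in neither structure as reported, though all 6 duct arrays were above stroma (mean 0.35, adjusted p = 0.0575). In ducts it passed with quantile normalization, a common spread or array weights (adjusted p between 0.0142 and 0.023). It also passed there without terminal end bud replicate 3 (adjusted p = 0.00129).

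Nrp1, the co-receptor of class 3 semaphorins and of vascular endothelial growth factor, was below stroma on all 12 arrays. It lay at -1.74 (lowest), -1.19 (median) and -1.02 (highest) in terminal end buds, and at -0.87 (lowest), -0.57 (median) and -0.4 (highest) in ducts. The groups did not overlap, and the difference was -0.64 (SE 0.13, adjusted p = 0.00283). It was -0.82 on slides up to 193 (adjusted p = 0.0571) and -0.54 on slides from 196 on (adjusted p = 0.0169). Plxnd1, a plexin well known from endothelium, stood at -0.398 (adjusted p = 0.0018) in terminal end buds and at -0.17 (adjusted p = 0.169) in ducts. The Plxnd1 difference between the structures, -0.23, did not pass (adjusted p = 0.257). On slides from 196 on it was -0.46 and passed (adjusted p = 0.0253). The mean log2 ratio of the endothelial markers ran from -1.33 to -0.92 over the terminal end bud arrays and from -0.54 to -0.15 over the duct arrays, and 9 of the 10 were lower in terminal end buds than in ducts, none higher. Their part in the values of Nrp1 and Plxnd1 was not tested.

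**Figure D2:**
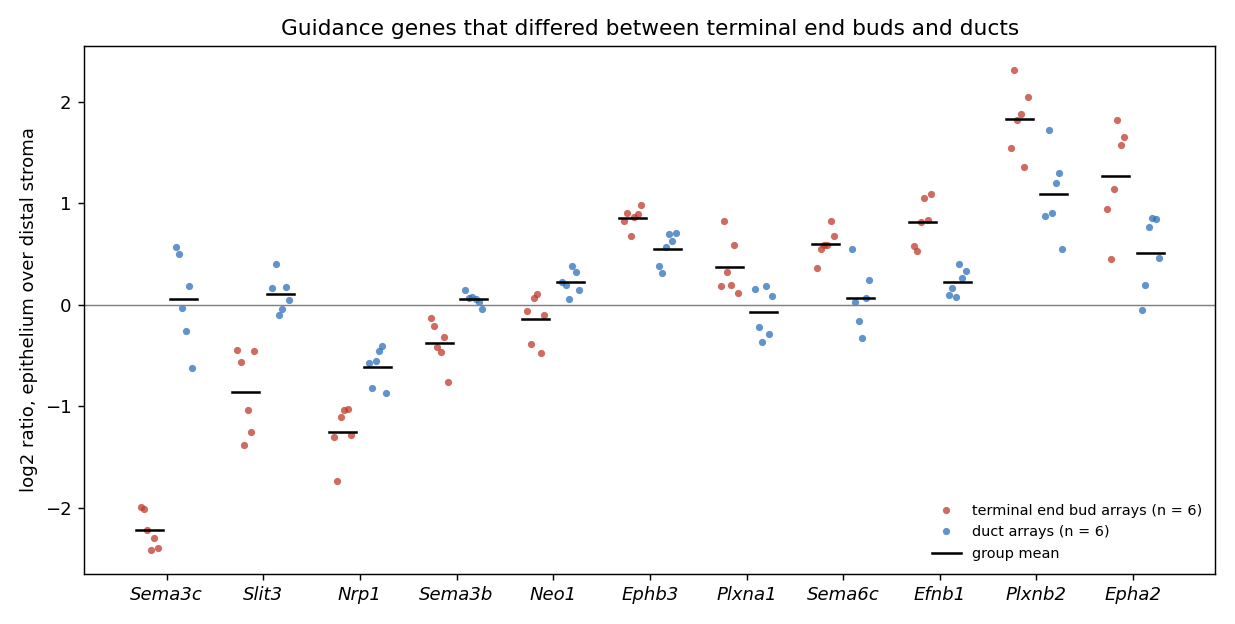
Log2 ratio of epithelium over distal stroma (vertical axis) on each array for the 11 genes that differed between the structures, with terminal end bud arrays in red at the left and duct arrays in blue at the right of each gene, and black lines at the group means. Genes run from the lowest to the highest difference. For Sema3c, Slit3, Nrp1, Sema3b and Efnb1 the 6 and 6 arrays do not overlap.

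Ephrins and their receptors were, where called, above stroma. Of the 19 genes, 0 were lower than stroma with limma in either structure, where 21.8% of all genes were lower in terminal end buds and 13% in ducts. At an unadjusted p under 0.05 the count was 1 in terminal end buds and 0 in ducts. Under other settings Efnb2 was called lower in terminal end buds, at -0.36 on slides up to 193 (adjusted p = 0.0432), -0.25 with early against late slides as a term (adjusted p = 0.00746), -0.19 with neighbouring slides as a block (adjusted p = 0.0318) and, when replicate 5 of the terminal end buds was left out, -0.26 (adjusted p = 0.0363). The share of all genes higher than stroma was 24.8% in terminal end buds and 17.1% in ducts. Of 5 ephrin-A ligands, 4 were higher in terminal end buds and 3 in ducts, of 3 ephrin-B ligands 1 and 1, of 8 EphA receptors 3 and 3, and of 3 EphB receptors 3 and 2. Epha2, an Eph receptor that branching of the mouse mammary gland is known to need, had the highest ratio of them in terminal end buds, while in ducts Epha1, Ephb3 and Efna4 were above it. It lay at 0.45 (lowest), 1.36 (median) and 1.82 (highest) in terminal end buds, and at -0.046 (lowest), 0.62 (median) and 0.86 (highest) in ducts. Terminal end bud replicates 1 and 2 were the lowest of their group and duct replicates 1 and 2 the lowest of theirs, and all 4 were on slides up to 193.

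The Epha2 ratio was higher in terminal end buds than in ducts by 0.75 (SE 0.23, adjusted p = 0.0332). It was 0.62 on slides up to 193 (adjusted p = 0.132) and 0.82 on slides from 196 on (adjusted p = 0.00864). The call was lost without terminal end bud replicate 4, 5 or 6 or duct replicate 1, 2 or 6 (adjusted p between 0.0608 and 0.0774). The duct ratio over stroma, 0.51 (adjusted p = 0.0285), was lost without duct replicate 3, 4, 5 or 6 (adjusted p between 0.055 and 0.0923). Among the other EphA receptors, Epha1 stood at 0.62 in terminal end buds and 0.74 in ducts, and Epha7 at 0.45 and 0.41, all called. The Epha7 call in ducts was lost without duct replicate 2, 5 or 6 (adjusted p between 0.0656 and 0.111). Epha3, Epha4, Epha5, Epha6 and Epha8 passed in neither structure from their counted probes. The second Epha4 probe was called higher in ducts at 0.32 (adjusted p = 0.0348).

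Efnb1, a transmembrane ephrin-B ligand, was the 1 gene that stood higher on every terminal end bud array than on any duct array. It lay at 0.53 (lowest), 0.83 (median) and 1.09 (highest) in terminal end buds, and at 0.082 (lowest), 0.21 (median) and 0.4 (highest) in ducts. The difference was 0.59 (SE 0.11, adjusted p = 0.00143), or 1.51-fold. It was 0.43 on slides up to 193 (adjusted p = 0.112) and 0.68 on slides from 196 on (adjusted p = 0.00377). The duct ratio over stroma, 0.22 (adjusted p = 0.0412), was lost without duct replicate 2, 4, 5 or 6 or terminal end bud replicate 5 (adjusted p between 0.0511 and 0.121). The other ephrin-B ligands did not pass in either structure, with Efnb2 at -0.19 and 0.11 and Efnb3 at 0.045 and -0.095 in terminal end buds and ducts.

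Ephb3, a receptor of ephrin-B ligands, lay at 0.68 (lowest), 0.88 (median) and 0.98 (highest) in terminal end buds, and at 0.31 (lowest), 0.597 (median) and 0.71 (highest) in ducts. All 12 arrays were above stroma, and the ranges overlapped at their edges. The difference was 0.31 (SE 0.087, adjusted p = 0.0229), and it was 0.061 with quantile normalization (adjusted p = 0.731) and 0.186 with a common spread of all arrays (adjusted p = 0.233). It was 0.52 on slides up to 193 (adjusted p = 0.0704) and 0.205 on slides from 196 on (adjusted p = 0.198). It was also lost without terminal end bud replicate 6 (adjusted p = 0.0549) or duct replicate 1 (adjusted p = 0.0562). Ephb4 was higher than stroma at 0.58 in terminal end buds and 0.35 in ducts, and Ephb6, which lacks kinase activity, at 0.37 in terminal end buds. Without duct replicate 3, 4 or 5 the Ephb4 call in ducts was lost (adjusted p between 0.0554 and 0.065), and without terminal end bud replicate 4, 5 or 6 that of Ephb6 (adjusted p between 0.0526 and 0.111). Of the ephrin-A ligands, Efna4 had the highest ratios at 0.65 and 0.53, called in both. Efna1 was at 0.31 and 0.46, also called in both, Efna2 at 0.27 and Efna5 at 0.45 were called in terminal end buds, and Efna3 at 0.27 in ducts. Without terminal end bud replicate 1, 3, 5 or 6 the Efna1 call there was lost (adjusted p between 0.0501 and 0.101), and without duct replicate 1, 4, 5 or 6 that of Efna3 (adjusted p between 0.0587 and 0.1285). Between the structures 0 of the 5 ephrin-A ligands were called with limma, and 1 had an unadjusted p under 0.05. Efna2, at 0.26 (adjusted p = 0.0615), passed with neighbouring slides as a block (adjusted p = 0.0488) and, at 0.29, without duct replicate 6 (adjusted p = 0.04997).

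The Slit ligands did not move together. Slit3 lay at -1.38 (lowest), -0.796 (median) and -0.45 (highest) in terminal end buds, and at -0.101 (lowest), 0.103 (median) and 0.41 (highest) in ducts. Every terminal end bud array was below stroma and below every duct array, and ducts were close to stroma. The difference was -0.96 (SE 0.17, adjusted p = 0.00111), or 1.95-fold lower. It was -0.79 on slides up to 193 and -1.05 on slides from 196 on, and both passed.

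Slit2 lay at -0.080 (lowest), 0.27 (median) and 0.73 (highest) in terminal end buds, and at -0.080 (lowest), 0.72 (median) and 0.83 (highest) in ducts. It was above stroma on 5 of 6 arrays of each structure, with means of 0.36 (adjusted p = 0.0255) and 0.6 (adjusted p = 0.00182), and its difference between them, -0.24 (SE 0.17), did not pass. The terminal end bud call was lost under 6 of 24 other settings. Among these were leaving out replicate 3 or 4 (adjusted p = 0.0895 and 0.0951), quantile normalization (adjusted p = 0.0684) and a common spread (adjusted p = 0.0577). On slides up to 193 alone neither call passed, at 0.08 in terminal end buds (adjusted p = 0.801) and 0.26 in ducts (adjusted p = 0.403). Slit1 passed in neither structure.

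Robo1, the receptor of the Slits, was above stroma on all 12 arrays. It lay at 0.58 (lowest), 0.92 (median) and 1.48 (highest) in terminal end buds, and at 0.402 (lowest), 0.56 (median) and 0.96 (highest) in ducts. The means were 0.97 (SE 0.1, adjusted p = 1.74e-06) and 0.62 (SE 0.1, adjusted p = 0.000346). They differed by 0.36 (SE 0.14), which did not pass (adjusted p = 0.0987). Without terminal end bud replicate 2 the difference was 0.44 and passed (adjusted p = 0.0383).

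Markers of other cell types also differed between the structures, in which Sema3c and Slit3 were lower in terminal end buds. Endothelial markers were lower for 9 of 10, with a median difference of -0.89. Of 8 adipocyte markers 5 were lower in terminal end buds than in ducts and none higher, and of 9 basal and myoepithelial markers 4 were lower (Krt14, Myh11, Cnn1 and Tagln) and Actg2 was higher, by 1.94 (adjusted p = 0.000434). Over the arrays, the adipocyte mean ran from -1.603 to -0.88 in terminal end buds and from -0.56 to -0.34 in ducts. The basal mean ran from 1.31 to 1.91 in terminal end buds and from 1.77 to 2.49 in ducts. Of 10 fibroblast markers 2 were higher and 2 lower between the structures. Luminal markers went the other way: of 11, 4 were higher in terminal end buds than in ducts and none lower, with a median difference of 0.38. The part of these cells in the values of Sema3c and Slit3, or of the guidance genes called higher in terminal end buds, was not tested.

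Netrin-1 (Ntn1), the secreted ligand of neogenin and Dcc, was above stroma on all 6 terminal end bud arrays. It lay at 0.16 (lowest), 0.36 (median) and 0.65 (highest) there, and at 0.027 (lowest), 0.14 (median) and 0.24 (highest) in ducts. The mean was 0.39 (SE 0.063, adjusted p = 0.000151) in terminal end buds and 0.14 (adjusted p = 0.118) in ducts, and the difference of 0.25 (SE 0.089) did not pass (adjusted p = 0.074). Ntn4, a netrin of basement membranes, passed in neither.

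Neogenin (Neo1) ran the other way. It lay at -0.47 (lowest), -0.082 (median) and 0.11 (highest) in terminal end buds, and at 0.057 (lowest), 0.21 (median) and 0.39 (highest) in ducts. All duct arrays were above stroma, and 2 of the terminal end bud arrays were. The difference was -0.36 (SE 0.11, adjusted p = 0.0291). It was lost without terminal end bud replicate 2 or 5 or duct replicate 1, 4 or 5 (adjusted p between 0.0531 and 0.0631). Within slides it passed on neither set, at -0.44 up to 193 (adjusted p = 0.168) and -0.33 from 196 on (adjusted p = 0.178). The duct ratio over stroma, 0.22 (adjusted p = 0.0414), was lost without any 1 of duct replicates 1, 2, 4, 5 and 6 or of terminal end bud replicates 1 and 6, which enter the shared spread (adjusted p between 0.0507 and 0.118).

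The other netrin receptors gave small ratios. Unc5c was higher than stroma in terminal end buds at 0.18 (adjusted p = 0.034), a call lost without replicate 1, 4 or 6 (adjusted p between 0.0548 and 0.128). Unc5b at 0.19 and Dcc at -0.11 did not pass there, and none of the 3 passed in ducts. Of the genes taken in by prefix alone, Unc5cl was higher at 0.55 in terminal end buds and 0.499 in ducts, and Unc50 passed in neither.

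Reelin (Reln), a large secreted glycoprotein best known for placing neurons in the developing cortex, was above stroma on all 12 arrays. It lay at 0.47 (lowest), 1.01 (median) and 1.83 (highest) in terminal end buds, and at 0.87 (lowest), 1.27 (median) and 1.75 (highest) in ducts. The ranges overlapped over most of their length. The mean was 1.13 (SE 0.16, adjusted p = 3.65e-05) in terminal end buds and 1.25 (SE 0.16, adjusted p = 4.4e-05) in ducts, the highest of the 58 genes in ducts, and the difference was -0.12 (SE 0.22). Vldlr, a reelin receptor that also binds lipoproteins, stood below stroma at -0.56 (SE 0.094, adjusted p = 0.000196) and -0.57 (SE 0.094, adjusted p = 0.000395) in terminal end buds and ducts.

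Which differences between the structures passed depended on how the arrays were scaled, as the plot under other settings shows. The median absolute deviation of the log2 ratios over all probes had a median of 0.296 over terminal end bud arrays and 0.251 over duct arrays, and scaling all arrays to a common spread or quantile normalization removes that difference. Of the 6 genes higher in terminal end buds, only Efnb1 passed under either, at 0.49 (adjusted p = 0.00255) with a common spread and 0.44 (adjusted p = 0.00541) with quantile normalization. Of the 5 lower genes, Sema3c, Slit3, Sema3b and Neo1 passed under both. Nrp1 was at -0.47 (adjusted p = 0.0554) and -0.202 (adjusted p = 0.408).

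**Figure D3:**
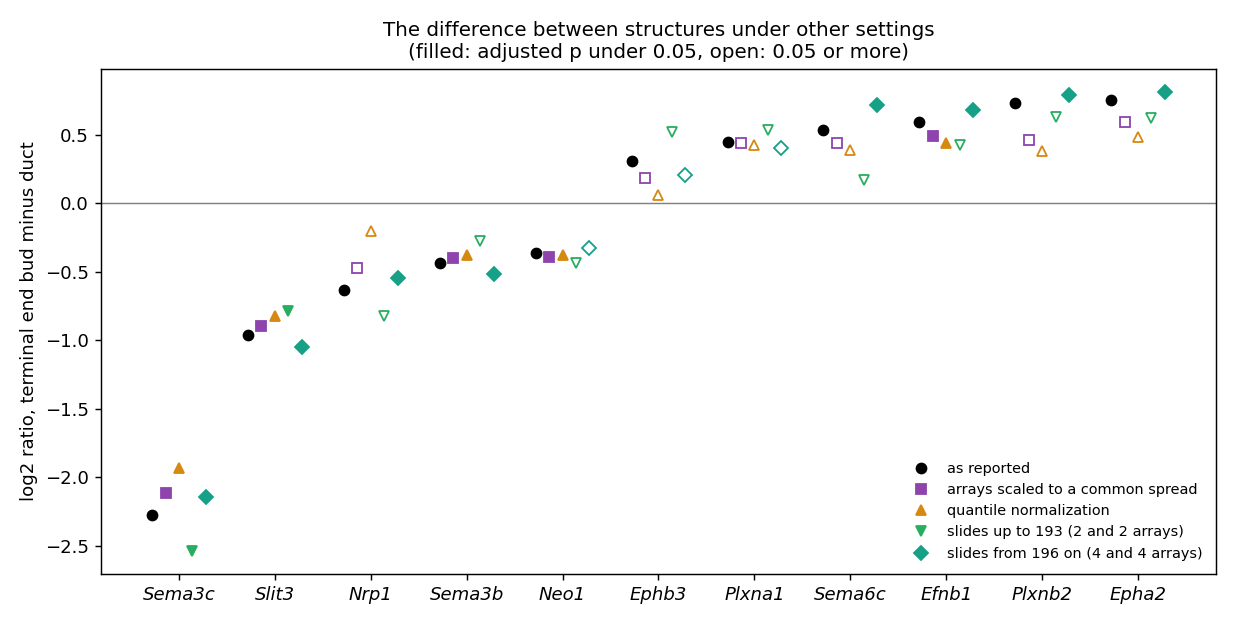
Difference in log2 ratio, terminal end bud minus duct (vertical axis), for the 11 genes called between the structures, as reported and under 2 other scalings of the arrays and within early and late slides. Filled points had an adjusted p under 0.05. Sema3c and Slit3 are filled throughout, and no point changes sign.

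Genes that carry guidance signals inside the cell or act as co-receptors were taken from a list of 79, of which 57 were measured. In terminal end buds 25 were higher and 9 lower than stroma, and in ducts 17 were higher and 6 lower. The shares over all genes were 24.8% and 21.8% in terminal end buds and 17.1% and 13% in ducts. The highest in terminal end buds were Gpc1 (a heparan sulphate proteoglycan that binds Slits) at 1.58, Farp1 (a FERM domain protein of plexin signalling in neurons) at 1.51 and Dpysl3 (a collapsin response mediator) at 1.43. Among the lowest there were Vldlr, at the value given above, and the adaptor Nck1 at -0.55.

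In ducts the adaptor Nck2 at 1.303, the ephrin-cleaving protease Adam10 at 1.17 and Dpysl3 at 1.12 led the same list. The lowest there were Vldlr, Mical3 (a flavoprotein oxidase of the Mical family) at -0.37 and Cdk5 (a kinase of collapsin response mediators) at -0.29. Set against ducts, terminal end buds were higher for 9 of the 57 and lower for 6, where 9.11% and 11.3% of all genes were called. Gpc1, at 1.58 in terminal end buds and 0.034 in ducts, differed by 1.55 (SE 0.15, adjusted p = 1.69e-05). Adam10, at 0.47 and 1.17, differed by -0.71 (SE 0.16, adjusted p = 0.00557).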

How the data were processed

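The deposited table holds 1 log2 ratio of Cy5 over Cy3 per probe and array, already normalized by the authors, with array medians from 0.01 to 0.023 and no scanner signals. No source used here gives the background correction or the normalization method. The log base is taken as 2, a natural log remains possible, and the direction follows the dyes per the labels. On 3 of the arrays values are missing, for 129 probes in all and for no guidance probe. Signal over background is unknown.

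All 17589 probes were fitted with limma 3.58.1 in R 4.3.3 (1 mean per structure over all 12 arrays, two-sided, Benjamini-Hochberg adjustment over all probes, threshold 0.05). A gene was counted by the probe with most values, then the first. The 62 guidance probes matched RefSeq by gene number. Of all probes, 14136 carry 1 symbol, 13 several and 3440 none. Values over arrays are given for genes called between the structures or with a called mean of at least 0.8 in size, and some others. Members and lists were chosen with earlier results of these data known. The labels number slides 190 to 203 and do not pair arrays. One gene of the list of signalling genes is not reported here by name.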

Additional observations from a re-analysis of the deposited data

Results flagged for a closer look

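In 9 of 124 groups of 6 arrays (62 probes in 2 structures), 1 array lay far from the other 5, with a gap over 0.625 of the group's range. Chance gives about 1 in 20. In terminal end buds, Plxnb3 was -0.645 on replicate 3, with the others between 0.354 and 0.565, and without it the mean was 0.46 (adjusted p = 0.000132). Ntn4 was -0.708 on the same replicate, with the others between -0.156 and 0.032, and Sema5b was -0.237, with the others between -0.144 and -0.097. Sema5a was -1.45 on replicate 4 (others -0.279 to 0.398), and Sema3e was -0.168 on replicate 5 (others -0.02 to 0.055).

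In ducts, replicate 4 gave Sema4d at -0.926 (others 0.784 to 1.493) and Sema7a at -1.444 (others -0.213 to 0.282). Epha3 was 0.609 on duct replicate 5 (others -0.128 to 0.049), and Slit2 was -0.08 on duct replicate 1 (others 0.608 to 0.831).

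The ratio over stroma differed between the structures for 11 genes. Terminal end buds were lower than ducts for Sema3c by a log2 difference of -2.28, Slit3 by -0.96, Nrp1 by -0.64, Sema3b by -0.44 and Neo1 by -0.36. They were higher for Epha2 by 0.75, Plxnb2 by 0.735, Efnb1 by 0.595, Sema6c by 0.53, Plxna1 by 0.45 and Ephb3 by 0.31.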

How the results depend on the processing

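No called value changed sign under the other settings. Without 1 array at a time, terminal end buds against stroma gave 23 to 26 higher and 7 to 9 lower genes, ducts 11 to 19 higher and 2 to 2 lower, and terminal end buds against ducts 4 to 7 higher and 4 to 6 lower. The low of 11 came without duct replicate 5. On slides up to 193 alone (2 arrays per structure) the counts were 11 and 5 (terminal end buds, higher and lower) against 26 and 8, 7 and 1 in ducts against 17 and 2, and 0 and 2 between the structures against 6 and 5 with limma, where 6 were higher at an unadjusted p under 0.05. Fewer arrays enter there. Slides from 196 on gave 1 lower gene in ducts. A minimum size of 0.5 left terminal end buds with 13 higher and 4 lower, 10 higher in ducts and 3 lower between the structures. Quantile normalization and a common median absolute deviation each left 1 higher between the structures, and the cause was not tested. Of 34, 19 and 11 called values, 14, 5 and 2 passed under every setting. No paired analysis by replicate number was possible because the labels give no shared numbers. Neighbouring slides as a block, which the labels do not call pairs, kept the counts at 6 and 5 between the structures: Neo1 (adjusted p = 0.0506) and Plxna1 (adjusted p = 0.0946) were lost, and Efna2 (0.255, adjusted p = 0.0488) and Efnb2 (-0.301, adjusted p = 0.0413) were gained. Without terminal end bud replicate 4, Ephb4 (0.35, adjusted p = 0.045) and Unc5b (0.35, adjusted p = 0.0309) passed between the structures. With array weights Sema4b (0.38, adjusted p = 0.0357) and Ntn1 (0.27, adjusted p = 0.0467) did. The number of arrays limits the precision.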
